A study of Homo sapiens with 2 samples.

Results

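The transcripts described here encode the Dishevelled proteins (DVL1, DVL2 and DVL3) and 7 regulators that act on or beside them: the positive partners FRAT1, FRAT2 and DIXDC1, and the antagonists NKD1, NKD2, CXXC4 and SENP2. They were chosen by symbol and make up 10 of the 113 Wnt pathway genes on an oligonucleotide membrane array. RNA came from SW480 cells, a human colorectal adenocarcinoma line. One stable line carried hiNOS, an inducible nitric oxide synthase, together with green fluorescent protein (GFP), and its control line carried the GFP vector only. Both were sorted on GFP, so GFP is shared by the 2 lines. Whether either line derives from 1 clone is not given in the labels. Each line has 1 array here, so no value has a replicate, no test was possible and every difference describes these 2 arrays. The series text mentions more than 1 RNA preparation and repeat assays, and whether an array here holds 1 preparation or a pool is not given. The gene for the overexpressed enzyme is not on the array, so its level could not be checked.

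Dishevelled is the cytoplasmic hub of Wnt signalling. When a Wnt ligand binds Frizzled, Dishevelled is recruited to the receptor, polymerises through its DIX domain and draws Axin away from the complex that marks beta-catenin for degradation. DIXDC1 carries a DIX domain too and joins these polymers, whereas the FRAT proteins bind the kinase GSK3 and keep it from Axin. NKD1 and NKD2 (Naked cuticle homologs) bind Dishevelled and dampen the signal, CXXC4 (also called IDAX) binds its PDZ domain and blocks its link to Axin, and SENP2 is a SUMO protease that can lower beta-catenin through Axin. NKD1 is itself a known Wnt target gene in colorectal cells. SW480 cells carry a truncated APC, so their beta-catenin pathway is active without a ligand.

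The antagonist genes NKD1 and NKD2 had the largest differences in density among the 10 members and were brighter on the hiNOS array, NKD1 by 2.07-fold and NKD2 by 1.65-fold after background subtraction. The positive partner DIXDC1 was 1.20-fold lower there, a direction that was not stable to the normalization used. DVL1 and DVL3 lay close to the brightest signal the arrays gave in both lines, and DVL2, FRAT1, FRAT2, CXXC4 and SENP2 were called absent in both. Signal is given as spot density in scanner units, and a spot was called absent by the authors' software when it was under 1.5 times a mean local background. By these calls 5 of the 10 members were present on both arrays and 5 on neither, and 0 were present on 1 array alone. Over all 113 pathway genes, 45 were present on both arrays, 54 on neither and 14 on 1 alone. The 10 members are too few to set apart from this split. The groups of roles were covered unevenly, with 2 of 3 Dishevelled genes, 1 of 3 positive partners and 2 of 4 antagonists present.

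**Figure D1:**
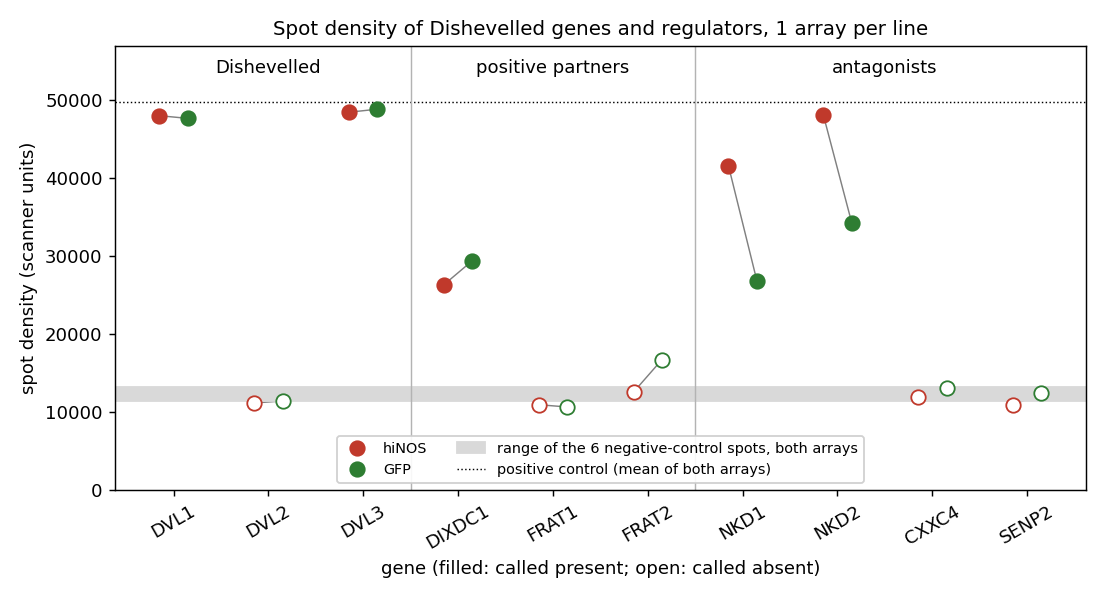
Spot density in scanner units (vertical axis) of the 10 genes, grouped by role, with the hiNOS array left of the GFP array for each gene. Points are single spots, filled where called present and open where called absent; the grey band is the range of the 6 negative-control spots over both arrays and the dotted line is the positive control. NKD1 and NKD2 are higher with hiNOS, DVL1 and DVL3 sit just under the positive control, and 5 genes lie in or near the grey band, except FRAT2 on the GFP array at 16726.

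The 2 arrays had similar limits. Blank spots averaged 12336 units with hiNOS and 12750 with GFP, and the 6 negative controls (blanks, plasmid and artificial sequences) ran from 11408 to 13214 with hiNOS and from 11986 to 12779 with GFP. The biotinylated positive control averaged 49565 units with hiNOS and 50047 with GFP. The dimmest gene called present had 18525 units with hiNOS and 18982 with GFP. Folds below are taken after subtracting the mean of the blanks and dividing by the mean of the GAPDH spot and the 2 ACTB spots of the same array. Those reference spots lie near the positive control themselves, between 47374 and 50151 units. Among bright spots, duplicates differed by at most 0.03 on the log2 scale within an array. The 7 housekeeping spots had log2 ratios from -0.04 to 0.02. GAPDH and ACTB are among them, and their ratios lie around 0 by construction, since their mean is the divisor. All of the duplicate and housekeeping spots lie at or near the positive control, where ratios near 0 would be read in any case. No duplicate lay in the range of NKD1 or DIXDC1, so scatter there was not measured. Whether reference spots this bright register a difference in loading was not tested. Among dim spots the scatter was wider: the 2 blanks differed by 1256 units with hiNOS and by 57 with GFP, log2 density ratios of the 6 negative controls had an SD of 0.08, and those of the 54 genes called absent in both lines spanned -0.41 to 0.36. None of these measures the variation between cell lines or cultures.

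NKD1 had a density of 41641 units with hiNOS, against 26856 with GFP. After blank subtraction these are 29305 and 14106 units, or 80.4% of the GAPDH and ACTB mean with hiNOS and 38.9% with GFP. NKD1 was thus 2.07-fold higher with hiNOS (log2 ratio 1.05), the highest ratio among the 45 pathway genes present on both arrays. Of these 45, 19 were at 90% of the positive control or more on both arrays, with log2 ratios of only -0.07 to 0.08. On neither array were 23 of the 45 that bright, so the rank is in effect among fewer genes. Among all 59 genes present on at least 1 array NKD1 stood at rank 5, behind 4 genes that were absent on 1 array. Without blank subtraction the ratio of density was 1.56-fold, since the common background pulls a ratio towards 1. Both NKD1 spots lay below 90% of the positive control, at 84.0% with hiNOS and 53.7% with GFP, so neither counts as near the top of the range by that measure.

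NKD2, the paralog of NKD1, had 48173 units with hiNOS, against 34302 with GFP. It was 1.65-fold higher after blank subtraction (log2 ratio 0.73) and 1.41-fold higher by density alone, rank 3 of the 45 genes present on both arrays. The hiNOS spot reached 97.2% of the positive control, against 68.5% for the GFP spot. If the film or scanner no longer responds there, the fold of NKD2 is a lower bound, and whether it does was not tested. The 2 genes thus differed in the same direction, NKD1 by 14785 units and NKD2 by 13871. The negative controls are dim spots, so their span gives no scatter to set against these differences.

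NKD1 and NKD2 occupy consecutive positions in the numbering of the array, 66 and 67, and the layout of the positions on the membrane is not given in the sources used here. MYC, at position 65, had 15870 units with hiNOS and 23002 with GFP, a difference of -7132 units. NLK, at position 68, was absent on both arrays with 17005 units with hiNOS and 13357 with GFP, a difference of 3648 units. The spots numbered just before and just after the pair differed in opposite directions, but the numbering need not give their place on the membrane. Any part of bright neighbouring spots in these values was not tested. All 4 NKD1 and NKD2 spots were called normal, not bleeding, by the authors' software.

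Of the other 2 antagonists, neither gave a usable level. CXXC4 had 11950 units with hiNOS, inside the range of the negative controls, and 13078 with GFP, where the highest of the negative controls had 12779. SENP2 had 10908 units with hiNOS, below every negative control, and 12372 with GFP, inside their range. Both were dimmer with hiNOS, with differences of -1128 units for CXXC4 and -1463 for SENP2, of a size with the gap of 1256 units between the 2 blank spots of the hiNOS array. No fold is given for either gene, and the direction seen for NKD1 and NKD2 cannot be extended to the antagonists as a group.

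DIXDC1 was the only positive partner present, with 26335 units with hiNOS and 29419 with GFP. It was 1.20-fold lower with hiNOS after blank subtraction (log2 ratio -0.26) and 1.11-fold lower by density. This difference of -3084 units is smaller in size than those of NKD1 and NKD2, its log2 ratio of density, -0.15, lies inside the span of the absent genes, and its direction was not stable, since quantile normalization gave a log2 ratio of 0.09. The genes next to it in the numbering were dimmer with hiNOS as well, with differences of -8067 units for DAAM2 and -2206 for DKK1.

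The FRAT genes were absent on both arrays. FRAT1 had 10930 units with hiNOS and 10637 with GFP, below every negative control on each array. FRAT2 had 12557 units with hiNOS, inside the range of the negative controls, and 16726 with GFP, brighter than every negative control. FRAT2 therefore showed signal above the controls in the GFP line only, 3976 units over the blanks, against 221 with hiNOS. Spots called absent reached 5147 units over the blanks on the GFP array, so this signal does not count as detection of FRAT2. Because the authors' call was absent on both arrays, no fold is given for it. Of the GSK3 kinases that FRAT proteins bind, GSK3A lay near the positive control on both arrays, at 48666 units with hiNOS and 48287 with GFP, and GSK3B was absent on both.

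Of the Dishevelled genes themselves, DVL1 had 48045 units with hiNOS and 47695 with GFP, and DVL3 had 48487 with hiNOS and 48880 with GFP. These spots were at 95.3% to 97.8% of the positive control. Their log2 ratios were 0.02 for DVL1 and -0.01 for DVL3, within the range of -0.07 to 0.08 over the 19 genes as bright as 90% of the positive control in both lines. A ratio near 0 from spots this bright does not show that the transcripts are equal, because the same would be read from any pair of spots at a ceiling. The GFP spot of DVL1 was also called bleeding, that is, bright and within 30% of its own local background. DVL2 had 11151 units with hiNOS and 11408 with GFP, below every negative control on both arrays.

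Set by role, the 2 antagonists present had a median log2 ratio of 0.89, DIXDC1 as the sole positive partner had -0.26 and the 2 Dishevelled genes present had 0.01. The median over all 59 genes present on at least 1 array was -0.01. The log2 ratio of NKD1 exceeded that of DIXDC1 by 1.31, and that of NKD2 exceeded it by 0.99. The value of NKD2, and with it the median of the antagonists, rests on a hiNOS spot near the positive control and may be too low. With 1 array a line these differences carry no replicate error, and 1 gene stands for the positive partners.

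By a fixed rule of 2-fold, 1 of the 5 members present was higher with hiNOS (NKD1) and 0 were lower. Over the 59 genes present on at least 1 array, 10.2% were 2-fold higher and 18.6% 2-fold lower, and over the 45 genes present on both arrays, 4.44% were higher and 6.67% lower. Counting genes absent on 1 array at a lower bound of their fold gave 5.08% of the 59 higher and 10.2% lower. A count of 1 in 5 is too small to set the members apart from these shares. On the authors' scaling, which divides by the mean of the middle 50% of spots, the rule picked NKD1 again at 2.19-fold, a value the authors' deposited table also lists. With no background subtracted, with normexp background correction and with scaling to the median gene present on both arrays, 0 members passed 2-fold.

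**Figure D2:**
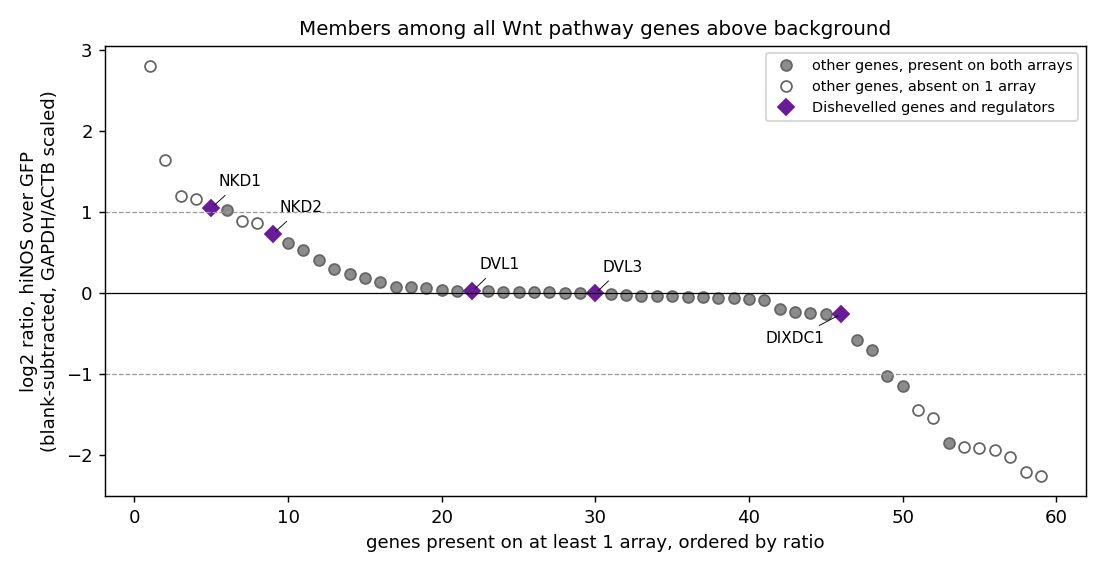
Log2 ratio of hiNOS over GFP after blank subtraction and GAPDH and ACTB scaling (vertical axis) for the 59 pathway genes present on at least 1 array, ordered from the highest to the lowest ratio. Diamonds are the 5 members present, filled circles are other genes present on both arrays and open circles are genes absent on 1 array; dashed lines mark 2-fold. NKD1 at 1.05 is the highest symbol that is not an open circle, NKD2 stands at 0.73, DVL1 and DVL3 lie on the flat middle and DIXDC1 at -0.26.

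Of the 10 members, 4 stand in the authors' deposited table of folds, 2 as over-expressed with hiNOS (NKD1 and SENP2) and 2 as under-expressed (FRAT2 and CXXC4). Only NKD1 of these 4 was called present. Over all 113 pathway genes, 16 are listed there as over-expressed and 23 as under-expressed, so the members do not stand apart by this count. SENP2 stands in the authors' deposited table at a ratio of 3.98 as over-expressed, although its density was lower with hiNOS. The ratio divides 2 negative numbers, since SENP2 stood at -1428 units relative to the blanks with hiNOS and at -378 with GFP. The same holds for 6 of the 16 genes that the authors' deposited table gives as over-expressed: their spots were under the blanks on both arrays and dimmer with hiNOS. CXXC4 has a ratio of -1.24 in the authors' deposited table, from -385.5 units relative to the blanks with hiNOS and 328 with GFP. FRAT2 is given there at 0.059, which rests on the 221 units left with hiNOS.

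Genes with a ratio like that of a member were sought among the genes present on both arrays, leaving out the members themselves. With 2 arrays the measure is only the difference between log2 ratios. Nearest to NKD1 was CSNK1D, a casein kinase 1 gene whose product phosphorylates Dishevelled, at 43447 units with hiNOS and 27934 with GFP and a log2 ratio of 1.03. The next were FOXN1 at 0.61 and the Frizzled receptor gene FZD2 at 0.53, which differed from NKD1 by 0.43 and 0.51. Nearest to DIXDC1 were CSNK2B, the regulatory subunit of casein kinase 2, at -0.26, JUN at -0.25 and WNT1 at -0.24. The JUN spot of the GFP array, at 46381 units, was itself beyond 90% of the positive control, so its ratio may be compressed.

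Kinases and a phosphatase that act on Dishevelled or its partners differed in both directions, as did the array as a whole. Of 10 such genes 9 were on the array and 8 were present on at least 1 array, with 2 at 2-fold higher and 3 at 2-fold lower with hiNOS by measured ratio, beside 10.2% higher and 18.6% lower over all 59 genes. When a gene absent on 1 array was counted at its bound, 1 was higher (CSNK1D) and 2 were lower (CSNK1A1 and CSNK2A2), beside 5.08% and 10.2% of the 59. CSNK1A1 had 24344 units with hiNOS and 39171 with GFP, 2.21-fold lower, the opposite direction to CSNK1D. CSNK2A2, a catalytic subunit partnered by CSNK2B, was absent with hiNOS at 17769 units, against 27442 with GFP, and was at least 2.39-fold lower. CSNK2A1, from the same list, was absent in both lines, at 11315 units with hiNOS and 12786 with GFP.

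Among other proteins listed as binding Dishevelled or acting beside it in Wnt signalling, 6 of 14 genes were on the array. Of these, 3 were present on at least 1 array. AXIN1, the scaffold that Dishevelled captures, had 24444 units with hiNOS and 23687 with GFP, a log2 ratio of 0.14, and AXIN2 lay near the positive control on both arrays. DAAM2, a formin that links Dishevelled to the small GTPases of planar polarity, was absent with hiNOS at 14378 units, against 22445 with GFP, and was at least 1.57-fold lower. DAAM1, NLK and RHOU were absent on both arrays. Upstream, 4 of the 12 Frizzled and LRP receptor genes were present on at least 1 array and 0 were 2-fold higher or lower, a number of genes too small to set against the 10.2% and 18.6% over all 59. FZD10 was called present with hiNOS alone, where it was at least 1.23-fold higher, and FZD2 was 1.45-fold higher, while FZD9 was 1.15-fold and FZD1 1.05-fold lower. LRP5 and LRP6, the co-receptors, were absent on both arrays.

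Directions of NKD1 and NKD2 were the same under each of 12 ways to treat background and scaling, with the main setting among them. Of these, 2 were chosen after seeing the data, and several barely differ from the main one. Scaling to GAPDH alone, ACTB alone or all housekeeping spots shifted the median of all genes by -0.02, 0.009 and 0.002. The log2 ratio of NKD1 ran from 0.64, with no background subtracted, to 1.19, with quantile normalization. It passed 2-fold in 9 of the 12, but not with no background subtracted, normexp or scaling to the median gene present on both arrays. The log2 ratio of NKD2 ran from 0.50 to 0.81 and passed 2-fold in 0. DIXDC1 ran from -0.44 to 0.09 and was below 0 in 11 of 12. DVL1 ran from -0.16 to 0.11 and was above 0 in 11 of 12, and DVL3 ran from -0.19 to 0.08 and was above 0 in 3. Such tallies of related settings give no direction to DVL1, DVL3 or DIXDC1. For NKD1 and NKD2 they are no replication either, since every setting reuses the same spots. Scaling to the median gene present on both arrays shifted the median of all genes by -0.18, less than either NKD ratio, so it could not reverse them.

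**Figure D3:**
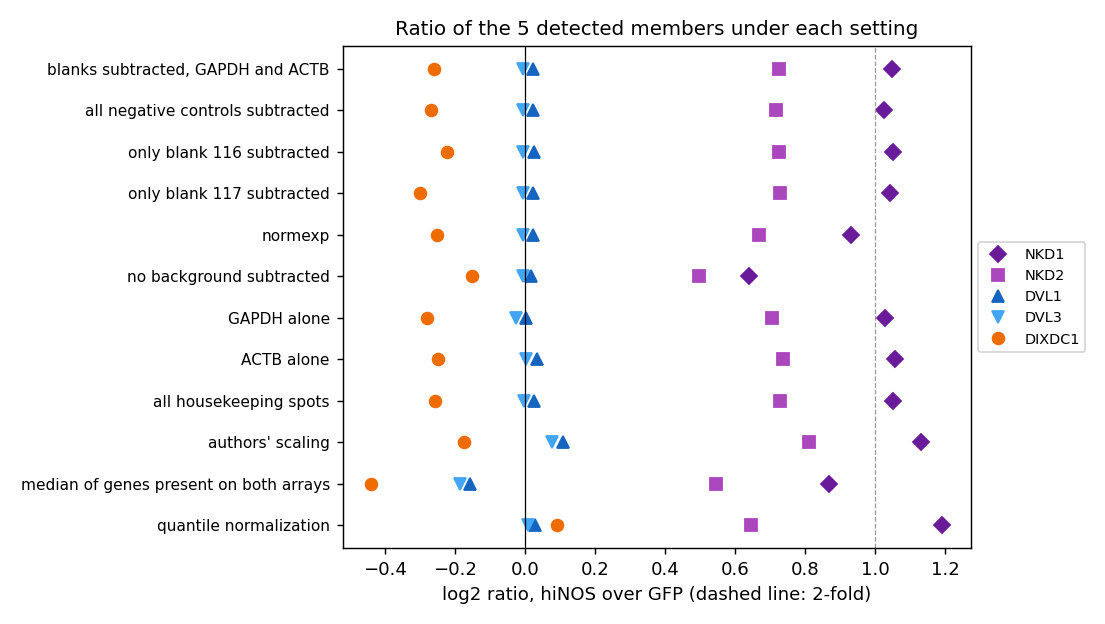
Log2 ratio of hiNOS over GFP (horizontal axis) of the 5 members present, 1 symbol per gene, under 12 ways to treat background and scaling (rows). Every row reuses the same spots. NKD1 (0.64 to 1.19) and NKD2 (0.50 to 0.81) stay right of 0 in every row, DVL1 and DVL3 move around 0, and DIXDC1 is left of 0 in all rows but quantile normalization.

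The promoter sequence of NKD2 is shown because NKD2 was 1 of the 2 antagonists that were brighter with hiNOS, and the RefSeq table used here holds its start site but not that of NKD1. These are the 250 bases before the annotated start, on the plus strand of GRCh38.p14 at chr5:1008552-1008801, written 5′ to 3′ with the 50 bases nearest the start in capitals.
NKD2: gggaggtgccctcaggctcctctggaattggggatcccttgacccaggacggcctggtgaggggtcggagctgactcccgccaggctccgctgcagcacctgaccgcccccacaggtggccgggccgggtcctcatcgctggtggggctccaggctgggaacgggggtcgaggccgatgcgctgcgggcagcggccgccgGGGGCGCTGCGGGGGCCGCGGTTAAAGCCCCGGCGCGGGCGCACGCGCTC
The stretch is 75.6% G and C, against a median of 58.0% over all 35116 starts in the table. The core of the TCF/LEF motif, searched as CTTTGA or CTTTGT on both strands, was not in it, nor in any of the 10 starts of the 8 members in the table, and 22.8% of all starts hold it within the same distance. Nothing on these arrays was measured at the promoter, and no match says only that these letters are not in these windows.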

How the data were processed

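The authors read autoradiographs with GEArray Expression Analysis Suite 2.0, per the series text, and deposited the average density of 128 spots as an intensity with no background removed, per the file headers. A further deposited intensity table was matched to within 0.005 by density less the mean of the 2 blanks, over the mean of the middle 50% of spots, so its scale is linear, uncentred and of settled direction. Its medians were 0.50 for hiNOS and 0.54 for GFP. The authors' deposited fold table holds hiNOS over GFP on that scale and is treated as a score, because some values are negative. The other deposited columns hold present and bleeding calls, used as given per the file headers; the densities of the GFP array are in the same unit as those of the hiNOS array.

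Here density less the mean of the blanks was divided by the mean of GAPDH and ACTB of the same array, and hiNOS was set over GFP as a log2 ratio. Python 3.11.15, pandas 2.3.3, R 4.3.3 and limma 3.58.1 (normexp with offset 50 and quantile normalization) were used. A gene absent on 1 array received a bound: the present value divided by the absent one, or by that of the dimmest gene present there if larger, and 1 where this was below 1. Near the positive control means at 90% or more of it. The ratio code gave back the known ratios of simulated arrays without noise or a ceiling, which checks its arithmetic only.

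Accessions of all 10 members matched RefSeq symbols. The named genes are all members and the 3 nearest in ratio to each member present and not near the positive control. Others come from lists of Dishevelled kinases, proteins that bind Dishevelled or act beside it, FRAT partners and receptors. Members and lists were chosen with earlier results of these data known. Probe sequences were not used here, so cross-hybridisation between paralogs was not tested. The number of arrays, 1 per line, limits precision as well.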

Additional observations from a re-analysis of the deposited data

How the results depend on the processing

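Alternatives to the blank-subtracted, GAPDH and ACTB scaled ratio were 15 planned ones and 2 chosen after seeing the data, each of the blanks subtracted alone, which moved no count or role median by more than 0.08 on the log2 scale or 1.5 times. With no background subtracted, 0 members and 0 of all pathway genes were 2-fold higher and 0 genes lower, and the medians were 0.57 for the antagonists and -0.15 for DIXDC1; a constant background under both arrays compresses ratios by construction. With normexp 0 members and 2 pathway genes were higher, and the antagonists had 0.80. Scaling to the median gene present on both arrays moved the median of all genes by -0.18 and gave 0 members and 3 pathway genes higher, with medians of 0.71 for antagonists, -0.44 for DIXDC1 and -0.17 for the Dishevelled genes. The authors' scaling gave 0.97, -0.18 and 0.092 for the same roles, and quantile normalization 0.092 for DIXDC1, where the cause was not tested. Only genes present on both arrays gave 2 higher and 3 lower pathway genes, and bounds gave 3 higher and 6 lower. With no filter, or with genes kept when brighter than every negative control on at least 1 array, 10 pathway genes were higher, 1 member (FRAT2) was lower and the positive partners had -2.22, because FRAT2 enters with 221 units over the blanks. A 1.5-fold rule gave 2 members and 10 pathway genes higher. Without spots near the positive control NKD1 alone was left of the antagonists, at 1.05, and the Dishevelled genes gave no value. The main counts were 6 pathway genes higher and 11 lower. No paired analysis was possible because each line has 1 array, so no replicate could be left out either. Signal over background limits the 5 absent members, and spots called absent reached 5433 units over the blanks with hiNOS and 5147 with GFP.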
